A study of Mus musculus with 6 samples.

Results

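The subject here is the set of genes with which innate immune cells sense microbes: the Toll-like receptors, their accessory proteins and signalling adaptors, and the cytosolic sensors of peptidoglycan, DNA and RNA. The list was drawn up by name, as 38 genes in 6 classes, out of 20018 gene symbols with a probe on the array. Every one of the 38 had at least 1 probe, and 37 passed the filter on dim probes; the exception was Tlr8. They were compared between cultured macrophages of wild-type (WT) mice and of mice lacking Bach1 (Bach1 KO), a heme-regulated transcriptional repressor that binds DNA as a partner of small Maf proteins.

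Toll-like receptors are membrane proteins that recognise conserved microbial molecules. Those of the cell surface bind bacterial lipids, lipoproteins and flagellin, and those of the endosome bind nucleic acids or parasite proteins after the chaperone UNC93B1 has carried them there. Both kinds signal through adaptors with a TIR domain, IRAK kinases and the ubiquitin ligase TRAF6 to NF-kB and interferon regulatory factors. NOD-like receptors, the inflammasome and the RIG-I-like helicases guard the cytosol. Macrophages express most of these genes before they meet any microbe.

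The WT group held 3 mice labelled wildtype (WT 1, 2 and 3) and the KO group 3 mice labelled Bach1 KO (KO 947, 948 and 949), all C57BL/6 at an age of 11 weeks; each group had 1 female and 2 males. Bone marrow of each mouse was cultured for 5 days with 10% fetal bovine serum and GM-CSF, the colony-stimulating factor for granulocytes and macrophages, at 10 ng/mL, and its total RNA went to 1 Agilent one-colour array. The labels name no microbial stimulus. The construct of the knockout allele and whether the mice were littermates are not given in the sources used here. GM-CSF supports macrophages, dendritic-like cells and granulocytes side by side, so a transcript level is an average over all cells of the dish.

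A level below is the log2 spot intensity minus the log2 75th percentile of its array, and a difference is KO minus WT on that log2 scale. Levels of different genes come from different probes and are not set against each other. A gene "passed" at a limma p-value, adjusted by Benjamini-Hochberg over all 15736 genes tested, below 0.05. Of 8 macrophage markers 7, among them Adgre1 and Csf1r, had a probe above background on at least 3 arrays; Cd68 had no named probe. The single Bach1 probe read 2.21 to 2.59 in WT and 1.45 to 2.23 in KO, so the groups overlapped. Whether it lies inside the deleted stretch is unknown here, so it does not check the labels. Hmox1, a gene that BACH1 is known to repress, read 4.99 to 5.83 in WT and 7.37 to 7.55 in KO, and it rose by 2.14 ± 0.25 (limma adjusted p = 0.0114; 2.10 and 0.0739 with a slide term). KO 947 shared its slide with all 3 WT arrays, whereas KO 948 and 949 were on a second slide. Between 70.3% and 73.2% of the spots were well above background on WT arrays, and between 62.5% and 65.1% on KO arrays. With 3 arrays in each group, their number sets the precision that can be had.

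Among the 37 genes tested, Lbp rose, Tlr12 fell, and the other 35 did not pass. These 2 calls are 5.41% of the members tested, beside 3.41% of all genes tested (1.14% higher and 2.27% lower in KO). The 3 KO arrays lay entirely above the 3 WT arrays in 12 members and entirely below in 2. These 14 are 37.8% of the members, beside 26.9% of all genes (13.4% with KO above and 13.5% with KO below). The median difference of the members was 0.13, against -0.01 for all genes, and 22 members had the higher mean in KO. In quintiles of all genes by mean level, dimmest first, the median difference was -0.39, -0.10, 0.07, 0.11 and 0.05. Most members were in quintiles 3 to 5, and how far their level bears on their median was not tested. At an unadjusted p under 0.05 there were 10 of the 37 members (8 higher, 2 lower in KO), beside 20.4% of all genes (1395 higher, 1819 lower). Scaling arrays to their median moved the median of all genes to 0.21 and that of the members to 0.35. Such scaling shifts every gene alike, so the gap of 0.14 between members and all genes stays by construction. The gap was 0.11 and 0.08 with the other normalizations tried. With scaling to the array median 31 of 37 members had the higher mean in KO, as did 11075 of all 15736 genes. In 20 members the KO arrays then lay above all WT arrays (27.3% of all genes did), and 4 members and 614 of all genes passed. With the slide as a fixed term, which leaves KO 947 alone to stand for KO, the median was 0.22 over members and 0.02 over all genes, and 28 members had the higher estimate in KO, as did 8249 of all genes.

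**Figure D1:**
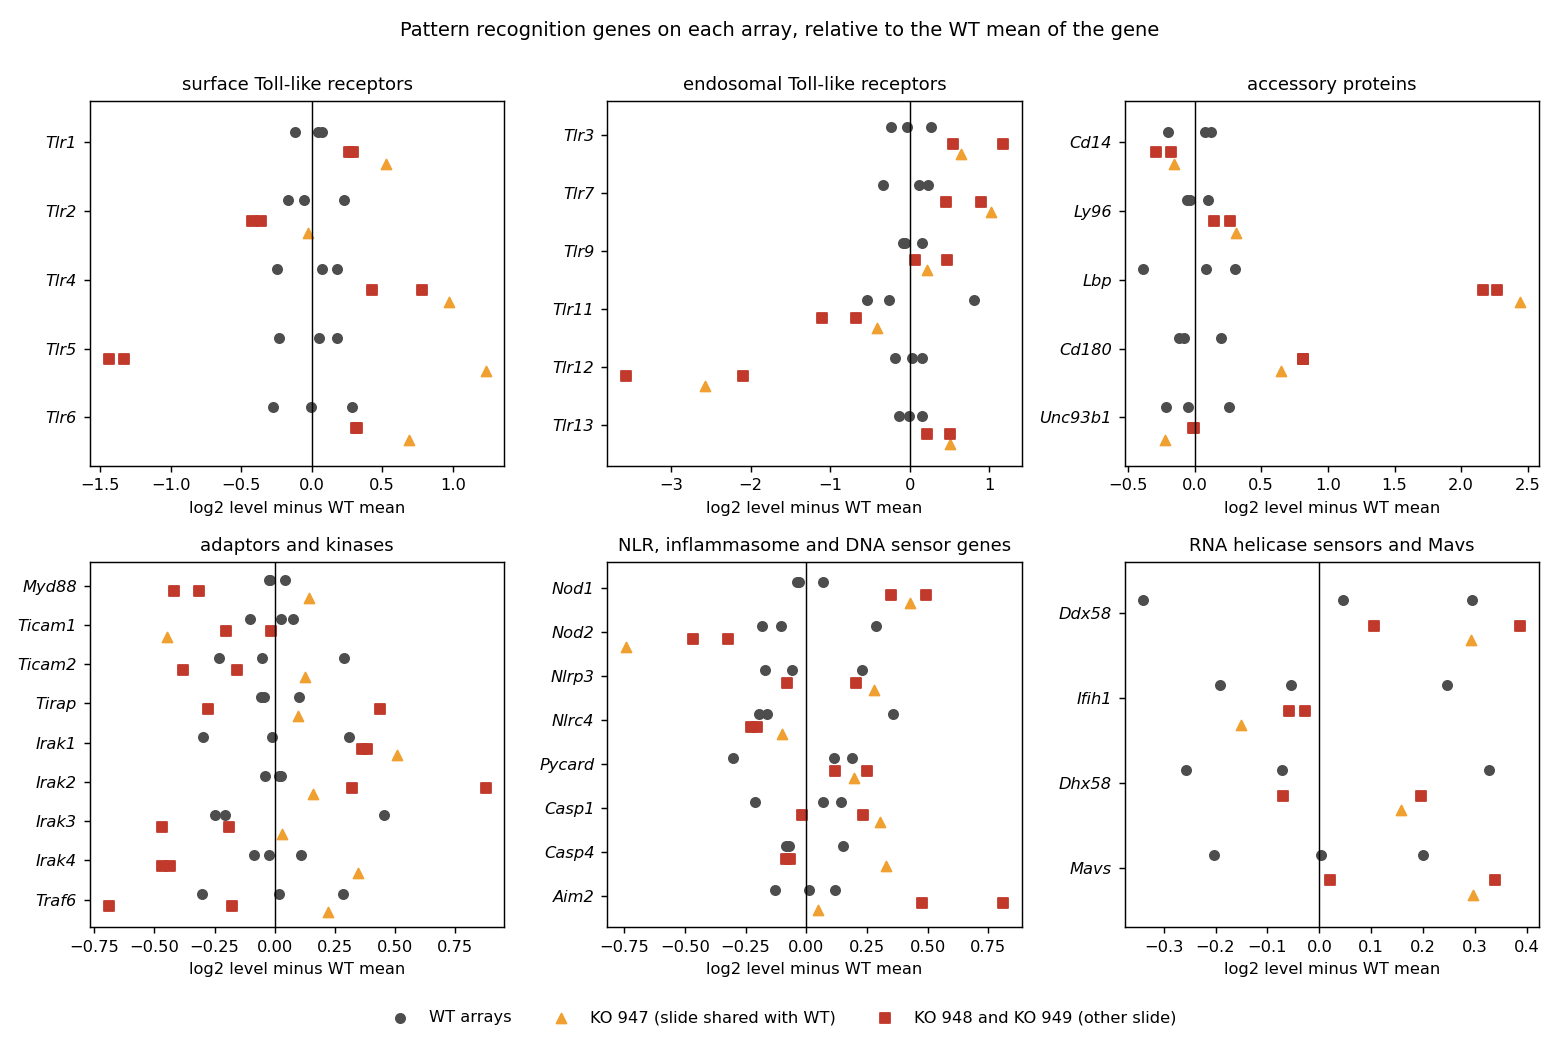
Each panel shows 1 class of genes; points give the log2 level on each array minus the WT mean of that gene (WT circles, KO 947 triangle, KO 948 and 949 squares), and the horizontal scale differs between panels. Lbp and Tlr12 have KO points furthest from the WT points, and in Tlr5 the triangle and the squares lie on opposite sides of WT.

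The accessory proteins of lipopolysaccharide sensing contained the member with the largest rise. LBP is a secreted protein that extracts lipopolysaccharide from bacterial membranes and hands it to CD14. The Lbp level was -2.48 in WT 1, -2.95 in WT 2 and -2.27 in WT 3, against -0.12 in KO 947, -0.30 in KO 948 and -0.41 in KO 949; values of other genes follow this order of mice. All KO arrays were above all WT arrays, and the 2 groups lay further apart than the range of either. The rise was 4.89-fold, a difference of 2.29 ± 0.21 (SE, n = 3 mice per genotype, limma adjusted p = 0.0093, 95% interval 1.79 to 2.79). It passed in 19 of 20 alternatives, a fixed slide term among them, which sets KO 947 alone against WT (2.44, adjusted p = 0.0471). One of the 20 is the deposited table, in which all 6 members that it holds passed, as did most of its genes. A pass there is therefore no support, here or in the tallies of Cd180 and Tlr12 below. Within the slide that holds both genotypes, where KO 947 alone stands for KO, the difference was also 2.44 and missed the threshold (adjusted p = 0.0667). Leaving out 1 array gave differences from 2.10 to 2.44, and each passed.

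Downstream of LBP, neither co-receptor of TLR4 passed. Cd14, the surface receptor that takes lipopolysaccharide from LBP, read 5.24, 4.96 and 5.28 for WT against 5.01, 4.87 and 4.99 for KO, and the groups overlapped. Its difference of -0.21 (95% interval -0.57 to 0.16, adjusted p = 0.496) turned to 0.01 with scaling to the array median. Ly96, which encodes MD-2, the lipid-binding subunit of the TLR4 complex, read 4.23, 4.21 and 4.37 across WT, and across KO 4.58, 4.42 and 4.54. Its groups did not overlap, but the difference was 0.24 (95% interval -0.09 to 0.57, adjusted p = 0.374).

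Cd180 came closest to the threshold without passing it. It encodes RP105, a TLR4-like receptor without a signalling domain that is known to modulate lipopolysaccharide responses. Its levels were -1.41, -1.44 and -1.13 in the WT mice, and -0.68, -0.51 and -0.51 in the KO mice, without overlap. The difference was 0.76 ± 0.15 (adjusted p = 0.0519). It passed in 6 of 20 alternatives, of which scaling to the array median gave 0.97 (adjusted p = 0.0385), and fitted with a slide term it was 0.65 (adjusted p = 0.200). Ly86, which encodes MD-1, the partner that RP105 needs at the cell surface and which belongs to the separate list of other pathway genes, read 2.59, 2.18 and 2.25 for WT against 3.26, 2.95 and 2.82 for KO. Its difference was 0.67 ± 0.19 (adjusted p = 0.115). The groups of both partners did not overlap, with KO higher in each, but neither partner passed in the main setting. Non-overlap with KO higher was found in 13.4% of all genes, so it does not set this pair apart. Unc93b1, the chaperone of endosomal receptors, differed by -0.08 (95% interval -0.50 to 0.34, adjusted p = 0.836; 0.14 with scaling to the array median), and its groups overlapped.

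**Figure D2:**
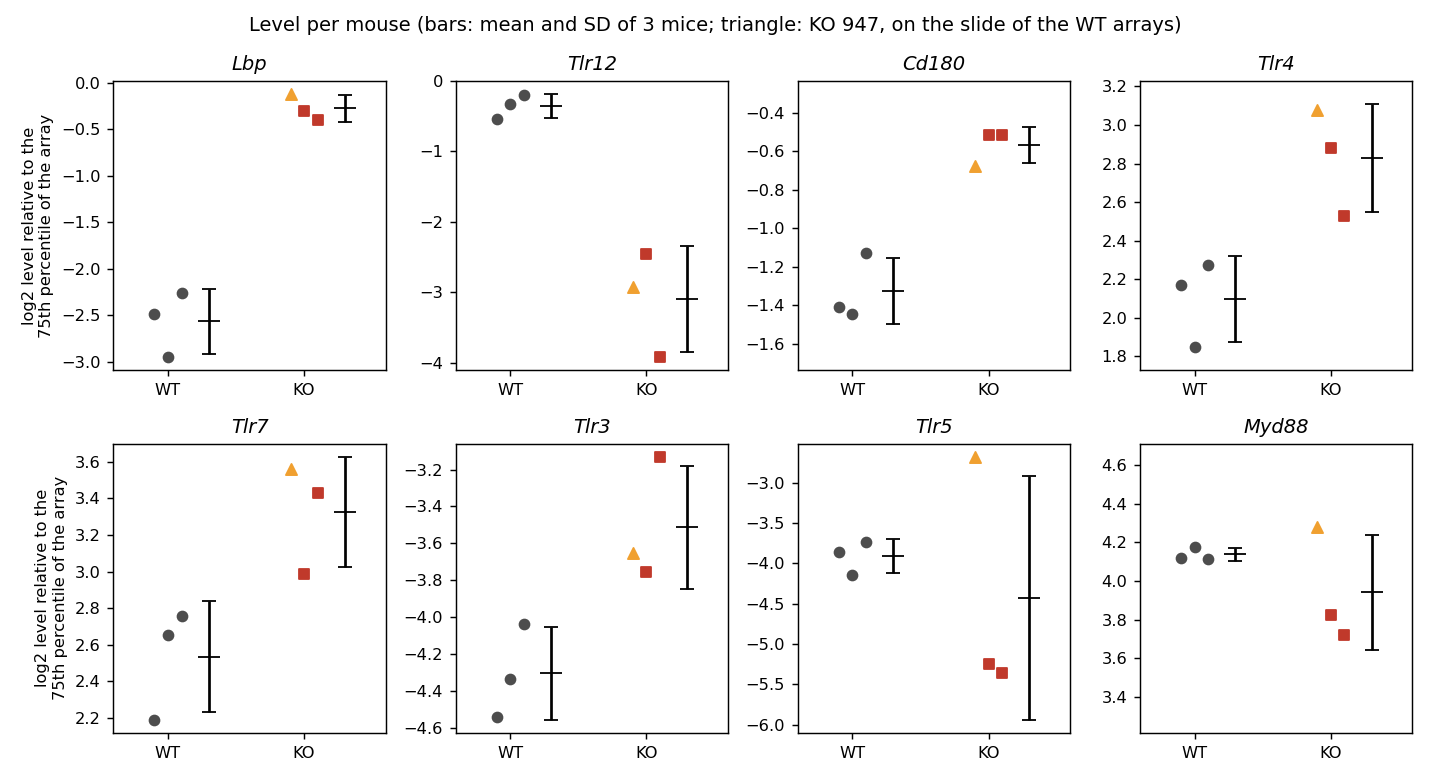
Each panel shows the log2 level of 1 gene per mouse (WT circles, KO 947 triangle, KO 948 and 949 squares) with the mean and SD of the 3 mice at the right of each group; vertical scales differ between panels. WT and KO do not overlap in Lbp, Tlr12, Cd180, Tlr4, Tlr7 and Tlr3, and they do in Tlr5 and Myd88.

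None of the 5 surface Toll-like receptors passed limma, and 2 of them, Tlr4 and Tlr1, had an unadjusted p under 0.05. Tlr4, the receptor for lipopolysaccharide, read 2.17, 1.85 and 2.28 across WT, and across KO 3.08, 2.88 and 2.53. Every KO array was above every WT array, by a difference of 0.73 ± 0.20 (1.66-fold, adjusted p = 0.112, 95% interval 0.25 to 1.21). With scaling to the array median it was 0.95 and passed (adjusted p = 0.0424), while with a slide term it was 0.98 and did not (adjusted p = 0.155).

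The lipoprotein receptors form pairs of TLR2 with TLR1 or TLR6. Tlr1 read 1.15, 0.99 and 1.19 in the WT mice, and 1.64, 1.40 and 1.38 in the KO mice, a difference of 0.36 (adjusted p = 0.237). Tlr6 read 1.23 to 1.79 in WT and 1.82 to 2.19 in KO, a difference of 0.44 (adjusted p = 0.280). In both, all KO arrays lay above the WT arrays. Their shared partner Tlr2 read 4.35, 4.24 and 4.64 across WT, and across KO 4.38, 4.04 and 3.98, with overlap and a difference of -0.27 (95% interval -0.71 to 0.16, adjusted p = 0.450; -0.03 with a slide term). The Tlr2 probe is printed 10 times on each array, and the SD of its repeated spots was 0.03 to 0.07, against an SD of 0.21 among the 3 mice of either genotype. Tlr1 and Tlr6 are related genes on chromosome 5, and cross-hybridisation between them was not examined, since probe sequences were not used here.

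Tlr5, the flagellin receptor, separated the KO arrays by slide. It read -3.86, -4.14 and -3.73 in WT, -2.68 in KO 947, and -5.24 and -5.35 in KO 948 and 949. KO 947 was therefore above every WT array and the other KO arrays were below. The readings of KO 948 and 949 were near the dimmest levels well above background on those arrays, -5.69 and -5.51. The overall difference was -0.51 (95% interval -2.16 to 1.13, adjusted p = 0.720). With a slide term, where only KO 947 is set against WT, it became 1.23 (adjusted p = 0.0814), and without KO 947 it was -1.39 and passed (adjusted p = 0.0236). No direction of Tlr5 with genotype can be given.

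The endosomal receptors held the 1 fall of the list. Tlr12, a mouse receptor that works with TLR11 in the recognition of the Toxoplasma protein profilin, read -0.53, -0.32 and -0.21 in the WT mice, and -2.92, -2.45 and -3.92 in the KO mice. Every array was well above background, and the highest KO array was below the lowest WT array. The fall was 6.71-fold, a difference of -2.75 ± 0.36 (SE, n = 3 mice per genotype, limma adjusted p = 0.0169, 95% interval -3.61 to -1.88). KO varied more than WT, with an SD of 0.75 against 0.17, and KO 949, the female, was lowest. The difference passed in 15 of 20 alternatives. It missed the threshold with a slide term (-2.57, adjusted p = 0.108), within the shared slide (-2.57, adjusted p = 0.0516), and without WT 1, WT 2 or WT 3 (adjusted p = 0.0693, 0.0674 and 0.0545). The values without 1 array ran from -3.07 to -2.34.

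Tlr12 is known to be expressed in dendritic cells as well as macrophages, and dendritic cell markers were also lower in KO. Of 13 such markers 12 were tested, all 12 had the lower mean in KO and 4 fell (Ccr7, Cd83, Ciita and H2-Aa). Of all 15736 genes 7994 had the lower mean in KO, and 2.27% fell. The marker lists were chosen with earlier results of these data known, so their counts are a description only. The summed level of the dendritic cell markers, in linear signal scaled to the 75th percentile of its array, was 589 to 711 in WT and 405 to 462 in KO. Sums of this kind weigh probes by their brightness. Most of this sum is the signal of H2-Eb1, Cd74 and H2-Aa, to which Flt3 and Zbtb46 add little. Xcr1, which marks the cross-presenting subset, was not well above background on any array, and Flt3 (difference -0.72, adjusted p = 0.291) and Zbtb46 (-0.23, adjusted p = 0.535) did not pass. Granulocyte markers also had lower sums, 266 to 352 in WT and 180 to 232 in KO, with 9 of 10 tested lower and 1 past the threshold, as did stromal markers (10.9 to 40.9 against 4.10 to 5.82; all 8 tested lower, 3 fell). Markers of eosinophils, mast cells and basophils had sums that overlapped (76.1 to 106.9 in WT, 56.9 to 80.5 in KO). Most of these sums is the signal of Ear1 (difference 0.20) and Prg2 (-2.68), neither of which passed. Of the 9 tested 7 had the lower mean in KO and 3 fell: Prss34 (-3.49), Kit and Mcpt8. Kit and Mcpt8 were not well above background on every KO array and give no reliable size. No lymphocyte marker of 6 passed, 5 had the lower mean, and the sums were 2.72 to 3.74 in WT and 2.43 to 2.67 in KO. The sums of the macrophage markers overlapped (306 to 354 in WT, 338 to 368 in KO) and none of 7 passed. The part of these markers in the fall of Tlr12, or in any other difference here, was not tested. In bulk RNA, fewer cells of a type and less RNA per cell cannot be told apart.

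The promoter stretch of Tlr12 is shown because it is the member with the largest change for which RefSeq promoter sequence was at hand; Lbp had none. It covers the 250 bases before the annotated start (GRCm38.p6, chr4:128618620-128618869, minus strand). Capitals mark the match to the core of a PU.1 site, AGGAAGTG, which lies 64 bases before the start. PU.1 is the lineage factor of macrophages and dendritic cells. This motif was added after the sequence had been read.
Tlr12: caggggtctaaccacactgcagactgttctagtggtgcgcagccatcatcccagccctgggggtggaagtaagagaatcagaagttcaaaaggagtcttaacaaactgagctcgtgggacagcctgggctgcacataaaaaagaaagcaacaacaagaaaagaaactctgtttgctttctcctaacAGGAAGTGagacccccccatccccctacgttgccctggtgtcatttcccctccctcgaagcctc
The same letters occur, on either strand, in 4.07% of all 32851 promoters of 300 bases (250 before to 50 after the start). Among the 39 promoters of members at hand they occur in 5, those of Aim2, Nlrc4, Pycard, Tlr12 and Tlr9. Of these genes Tlr12 alone passed the test of expression.

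Of the remaining endosomal receptors, Tlr7, Tlr3 and Tlr13 had KO arrays above all WT arrays without passing. Tlr7, the sensor of single-stranded RNA, read 2.19, 2.65 and 2.76 for WT against 3.56, 2.99 and 3.43 for KO, a difference of 0.79 ± 0.23 (1.73-fold, adjusted p = 0.120). A second Tlr7 probe gave 0.80. Tlr3, the sensor of double-stranded RNA, read -4.54, -4.33 and -4.04 across WT, and across KO -3.65, -3.75 and -3.13, a difference of 0.79 ± 0.22 (adjusted p = 0.118). Tlr13, a mouse receptor for bacterial ribosomal RNA, read 5.08, 5.37 and 5.21 in the WT mice, and 5.72, 5.44 and 5.72 in the KO mice, a difference of 0.41 ± 0.16 (adjusted p = 0.214). Each of these 3 has an unadjusted limma p under 0.05, as do 20.4% of all genes in either direction. Their 95% intervals (0.25 to 1.33, 0.25 to 1.32 and 0.03 to 0.79) lay above 0. These intervals come from the same fit as the unadjusted p and are no separate support. Non-overlap with KO higher was found in 13.4% of all genes.

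Tlr9, the sensor of unmethylated CpG DNA, overlapped between the groups (1.62, 1.41 and 1.38 in WT; 1.68, 1.93 and 1.53 in KO) and differed by 0.25 (adjusted p = 0.451). Tlr11, the partner of TLR12, read -3.73, -2.67 and -4.01 for WT against -3.89, -4.58 and -4.14 for KO. Its difference of -0.73 had a 95% interval of -1.62 to 0.16 (adjusted p = 0.327), with WT 2 the highest array and overlap between the groups. Tlr8 was above background on 1 array, WT 3. It read -5.71, -6.60 and -5.55 across WT, and across KO -6.73, -6.52 and -6.01, was not tested, and gives no fold.

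**Figure D3:**
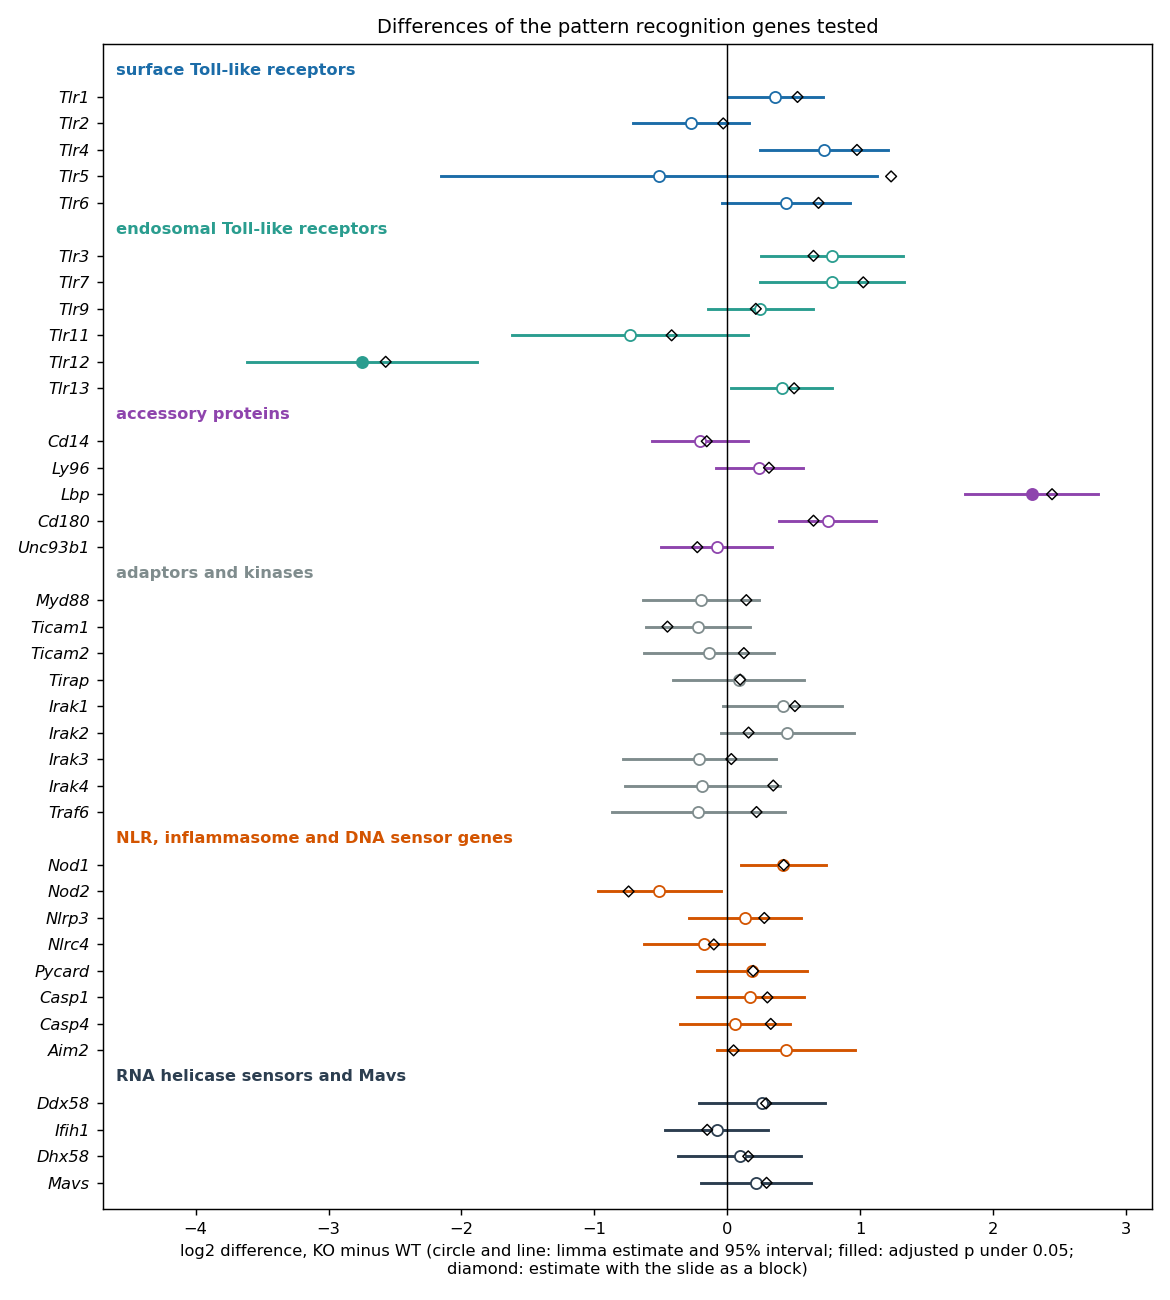
The log2 difference KO minus WT of each gene tested is drawn with its 95% interval (circle and line; filled where the adjusted p was under 0.05) and, as a diamond, the value with a slide term (block). The filled circles are Lbp at 2.29 and Tlr12 at -2.75, and the diamond of Tlr5 lies on the other side of 0 from its circle.

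No adaptor or kinase of the Toll-like receptor pathway passed limma, and none of the 9 had an unadjusted p under 0.05. Myd88, the adaptor that nearly all these receptors share, read 4.12, 4.18 and 4.11 in the WT mice, and 4.28, 3.82 and 3.72 in the KO mice. The WT arrays were close together (SD 0.04), whereas KO 947 lay above and the other KO arrays below them. The SD of its 10 repeated spots was 0.07 to 0.09. Its difference was -0.20 (95% interval -0.63 to 0.24), with 0.14 when a slide term was fitted. Tirap, the adaptor that brings MyD88 to the membrane, differed by 0.09 (-0.41 to 0.58). Ticam1, which encodes TRIF, the adaptor of the interferon branch, differed by -0.22 (-0.61 to 0.17), and Ticam2, which bridges TRIF to TLR4, by -0.14 (-0.63 to 0.35).

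Among the kinases, Irak1 and Irak2 had KO arrays above all WT arrays. Irak1 read 2.25, 2.54 and 2.86 for WT against 3.06, 2.91 and 2.93 for KO, a difference of 0.42 (95% interval -0.03 to 0.87, adjusted p = 0.272). Its other 2 probes gave 0.11 and -0.01, so the probes differ on whether there was any difference. Irak2 read 1.96, 2.03 and 2.02 across WT, and across KO 2.16, 2.32 and 2.88, a difference of 0.45 (-0.05 to 0.95, adjusted p = 0.286). Its second, dimmer probe went the other way, with the lower mean in KO. That probe was above background on all 3 WT arrays but on 1 of the 3 KO arrays, and so gives no reliable size. Irak4, the kinase that starts the cascade, had KO 947 at 0.13, above the WT range of -0.30 to -0.11, and KO 948 and 949 at -0.68 and -0.65. Its difference was -0.19, and 0.35 with a slide term; its second probe gave 0.40. Irak3, the inhibitory member of the family, differed by -0.21 (-0.79 to 0.37), with WT 3 highest at 2.52. Traf6, the ubiquitin ligase downstream, differed by -0.22 (-0.86 to 0.43). The class had a median of -0.19, which was 0.14 with a slide term and 0.03 with scaling to the array median. The medians of all genes were -0.01, 0.02 and 0.21 in the same 3 settings, so the class lay below all genes without a slide term and above them with it. Scaling to the array median shifts every gene alike and cannot change this position.

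The NOD-like receptors, inflammasome genes and the DNA sensor Aim2 gave no call in 8 genes tested with limma, and 2 had an unadjusted p under 0.05, the peptidoglycan sensors Nod1 and Nod2, in opposite directions. Nod1 read 1.34, 1.44 and 1.34 in the WT mice, and 1.80, 1.87 and 1.72 in the KO mice, narrow ranges that did not overlap. Its difference was 0.42 ± 0.13 (95% interval 0.10 to 0.74, adjusted p = 0.143; 0.43 with a slide term). Nod2 read -0.06, -0.14 and 0.32 for WT against -0.70, -0.28 and -0.43 for KO, again without overlap. Its difference was -0.51 ± 0.19 (-0.97 to -0.05, adjusted p = 0.204; -0.74 with a slide term and -0.29 with scaling to the array median). It was, with Tlr12, the other member in which every KO array lay below WT.

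The ranges of the 5 inflammasome genes overlapped between genotypes. Nlrp3, the sensor of membrane damage and ion flux, differed by 0.13 (95% interval -0.29 to 0.56), and its second probe by 0.06. Nlrc4, which signals bacterial flagellin and secretion systems, differed by -0.18 (-0.63 to 0.28), and the adaptor Pycard (ASC) by 0.19 (-0.23 to 0.60). The protease Casp1, which matures interleukin-1 beta, differed by 0.17 (-0.23 to 0.58). Casp4, the mouse caspase-11 that binds cytosolic lipopolysaccharide, differed by 0.06 (-0.35 to 0.47), and its second probe by 0.15. Aim2, the sensor of cytosolic DNA, read -0.82, -0.68 and -0.57 across WT, and across KO -0.64, 0.12 and -0.22, with KO 947 inside the WT range. Its difference was 0.44 (-0.08 to 0.97, adjusted p = 0.312), and 0.05 with a slide term.

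The RNA helicases overlapped between genotypes throughout, and neither limma's adjusted p nor an unadjusted p under 0.05 picked any of the 4 genes. Ddx58, which encodes RIG-I, read 3.19, 2.80 and 3.44 in the WT mice, and 3.44, 3.53 and 3.25 in the KO mice, a difference of 0.26 (95% interval -0.22 to 0.74), with 0.53 for its second probe. Ifih1, which encodes MDA5, differed by -0.08 (-0.47 to 0.31), while its second probe was above background on 2 of the 3 KO arrays only, and Dhx58, which encodes the regulatory helicase LGP2, by 0.09 (-0.37 to 0.56). Mavs, the mitochondrial adaptor of these helicases, differed by 0.22 (-0.19 to 0.63). The 3 helicases are interferon-induced genes, and in WT each was highest on WT 3.

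**Figure D4:**
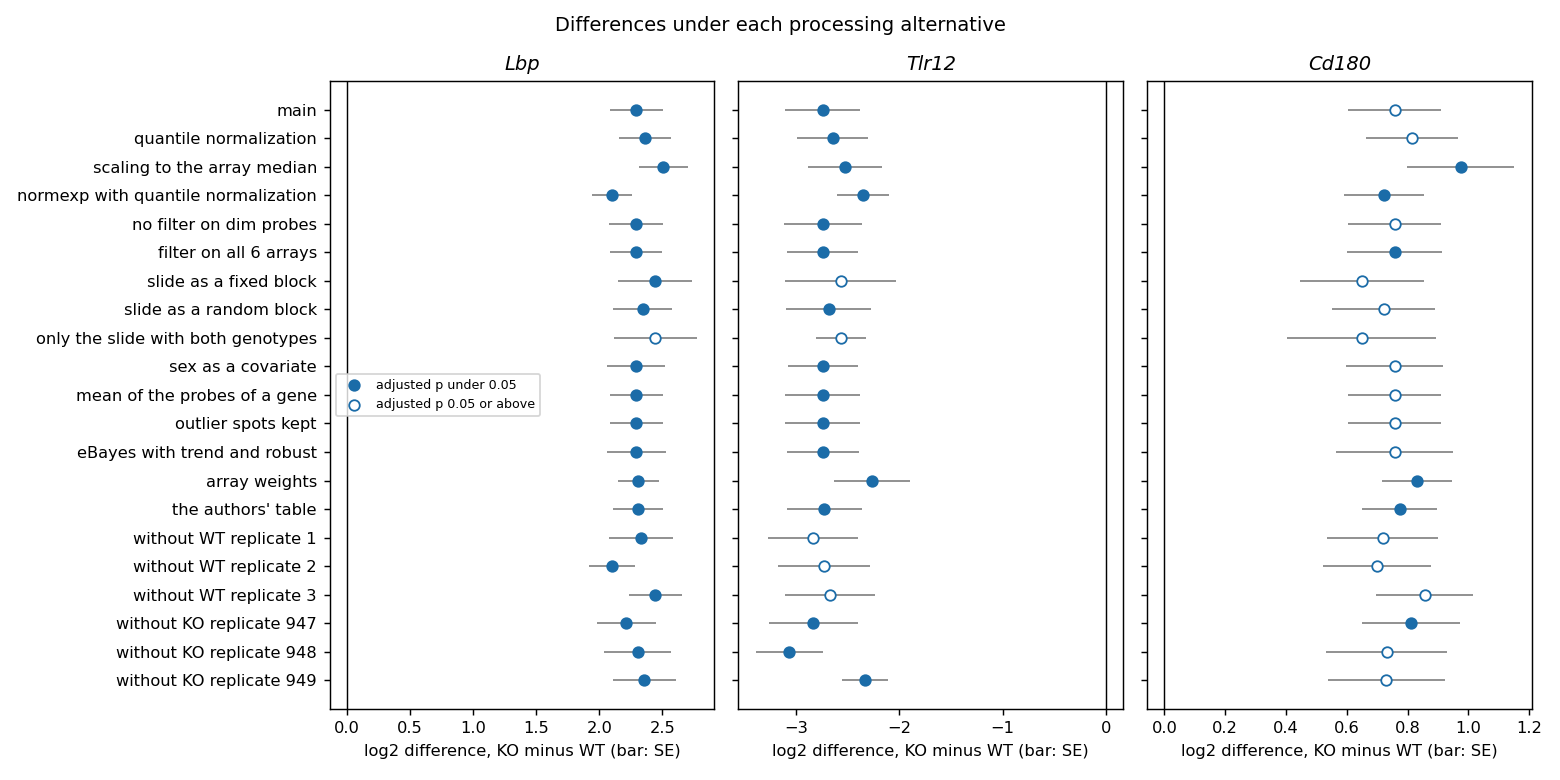
The log2 differences of Lbp, Tlr12 and Cd180 are shown under the main setting and 20 alternatives, with their SE; filled points have an adjusted p under 0.05. The sign is the same in every row, Lbp passes in all but the fit within the shared slide, and Cd180 moves across the threshold.

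Beyond the members, 60 further genes of these pathways were followed: sensors, chaperones, kinases and ubiquitin ligases, regulators and products. Of the 58 tested (Sarm1 was above background on no array, and Nlrp6 had no named probe) none passed limma, 7 had an unadjusted p under 0.05 (5 with KO higher; 20.4% of all genes had such a p), and their median difference was 0.04. The groups did not overlap in 13 of the 58 (22.4%, beside the 26.9% of all genes). Mefv, which encodes the inflammasome sensor pyrin, had the largest difference, reading 0.34, 0.09 and 1.42 for WT against -1.21, -0.67 and -0.86 for KO (-1.53 ± 0.36, adjusted p = 0.0756). Tnfaip3, which encodes A20, the ubiquitin-editing brake on NF-kB, read 3.26, 3.57 and 3.79 across WT, and across KO 2.57, 2.64 and 2.86 (-0.85 ± 0.19, adjusted p = 0.0636). Ikbkg, which encodes NEMO, the regulatory subunit of the kinase that frees NF-kB, read -1.15, -0.51 and -0.63 in the WT mice, and 0.04, 0.09 and 0.56 in the KO mice (0.99 ± 0.23, adjusted p = 0.0744). Neither Mefv, Tnfaip3 nor Ikbkg overlapped between the groups. Ecsit, a TRAF6-binding protein, differed by 0.71 (adjusted p = 0.102), and the inhibitory receptor gene Nlrp12 by -0.69 (adjusted p = 0.274).

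The X chromosome carries Tlr7, Tlr8, Tlr13 and Irak1, and the sexes were therefore compared with genotype as a covariate (2 females, 4 males). Female minus male was 0.25 ± 0.25 for Tlr7, 0.06 ± 0.19 for Tlr13 and 0.21 ± 0.21 for Irak1, and none passed (limma adjusted p = 1.00 for each). No member passed this test, and 1 (Tlr3) had an unadjusted p under 0.05. Of all 15736 genes 0.00635% passed and 447 had such a p. For the interaction of sex and genotype no member passed limma either, and 3 had an unadjusted p under 0.05 (Tlr12, Irak3 and Traf6). Of all genes 0.0254% passed and 1120 had such a p. With 1 female per genotype the number of mice limits both tests.

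BACH1 and small Maf proteins bind Maf recognition elements, whose centre is TGACTCA, and related antioxidant response elements with the core TGACNNNGC. Promoters of 30 of the 38 members were at hand (39 promoters, as some genes have more than 1 start). On either strand, TGACTCA occurred in 1 of these 39 promoters, that of Tlr9, and in 5.20% of all promoters. TGACNNNGC occurred in 5 of the 39, from 5 members, and in 12.4% of all promoters. The windows are shown because these are the member promoters that carry letters of the kind BACH1 is known to bind; capitals mark the matches, and for Tlr9 the antioxidant element core comes first and TGACTCA second. The positions are those of GRCm38.p6, plus strand: Tlr9 at chr9:106222511-106222556, Irak2 at chr6:113638414-113638442, Irak4 at chr15:94543415-94543443, Mavs at chr2:131233980-131234008 and Nlrp3 at chr11:59542686-59542714, the last just after 1 of its annotated starts and matching on the opposite strand.
Tlr9: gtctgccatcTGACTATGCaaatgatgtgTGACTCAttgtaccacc
Irak2: gggtggagcgTGACACCGCgcttggccgc
Irak4: gatccaccggTGACCCGGCatcctaatag
Mavs: gccaggccaaTGACTGCGCttccgatccc
Nlrp3: ccaggtcctaGCCTCGTCAccatgggttc
None of these 5 genes passed, with differences of 0.25, 0.45, -0.19, 0.22 and 0.13 in the order shown. A match is a description of the letters and not evidence of binding. Neither pattern occurs in the promoter of Tlr12, which says only that these letters are not in that window.

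Motifs of inflammatory factors were also searched. The interferon-stimulated response element, GAAA repeated after a pair of any bases, was found in 5 of the 39 member promoters and in 3.44% of all promoters. The 5 belong to Ddx58, Ifih1, Myd88, Tlr11 and Tlr6. The NF-kB core, GGGA and CC with any 4 bases between, was found in 11 of the 39 and in 20.7% of all promoters. The 11 belong to 9 members, among them Tlr2 with 2 matches and Tlr3 with 3. The composite site of PU.1 with interferon regulatory factors, GGAA and GAAA with a pair of any bases between, was found in no member promoter and in 2.72% of all. None of the genes with either of the first 2 motifs passed the test of expression.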

How the data were processed

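Each array was scanned and extracted by the authors with Agilent Feature Extraction, in version 10.7.3.1 going by the files and 9.1 going by the submitters' processing notes. The deposited processed signal is an intensity, background-subtracted and detrended within the array and not scaled between arrays. A deposited table of log2 values, which the authors centred per probe, holds 3215 probes and 6 of the members; since all 6 pass in it, it served as an alternative only. Probes were named through RefSeq transcript accessions (GRCm38.p6): 26413 of 55681 probes matched. Outlier spots were left out, spots of a probe averaged, and log2 intensity reduced by the log2 75th percentile of the array. A probe was kept if 3 of the 6 arrays or more had it well above background; the brightest probe stood for a gene, and 8 members had more than 1 probe. Differences were tested with limma 3.58.1 in R 4.3.3 (lmFit, eBayes, no covariate, two-sided). The mice are biological replicates; replicate numbers are not shared between genotypes. All 38 members are named, as are up to 6 other pathway genes with the largest differences, none having passed. The members and lists were chosen with earlier results of these data known.

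On simulated data of 15701 genes for KO minus WT, the procedure recovered 24 of 67 genes shifted by 1 on the log2 scale, 59 of 67 shifted by 2, and 59 of 66 shifted by 3. It also called 13 genes that had not been shifted. The simulated arrays were drawn independently and without a slide effect, so recovery under the slide layout of these data was not tested. The 20 alternatives cover normalization, background correction (normexp on median spot signals), filters, slide, sex, probes, outliers, variance model, array weights, the deposited table and each array left out.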

Additional observations from a re-analysis of the deposited data

How the results depend on the processing

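The count of all genes passing, 537 in the report, was 343 with quantile normalization, 275 without a filter on dim probes, 84 with slide as a fixed block, 255 as a random block, 24 within the shared slide, 305 with sex as a covariate, 810 with a trended robust variance, 3100 with array weights, 1740 in the deposited table, and 77 to 900 with 1 array left out. The members passing, 2 in the report, were 4 with scaling to the array median, 1 with slide as a fixed block, 0 within the shared slide (limma), 7 with array weights, 6 in the deposited table, and 1 to 4 with 1 array left out. The other pathway genes passing, 0 in the report, were 2 with scaling to the array median, 1 with normexp, 1 with the filter on all 6 arrays, 4 with a trended robust variance, 8 with array weights and 4 in the deposited table. The deposited table holds only 1844 named genes, most of which passed, whereas 15736 genes were tested in the report. Its counts are therefore not comparable with those of the other settings. The shared slide holds fewer samples. The cause of these shifts was not tested in any setting.

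Scaling to the array median raised the median of the members to 0.35 and the class medians to 0.55 (endosomal receptors), 0.46 (accessory proteins), 0.37 (NLR and inflammasome genes) and 0.37 (RNA helicases and Mavs). Since it moved the median of all genes from -0.01 to 0.21, members just under 0 turned with it: Cd14 (0.011), Unc93b1 (0.14), Myd88 (0.021), Ticam2 (0.079), Irak3 (0.0083), Irak4 (0.031), Traf6 (0.00042), Nlrc4 (0.041) and Ifih1 (0.14). A fixed slide block and the shared slide alone gave the same values: medians of 0.69 (surface receptors), 0.14 (adaptors and kinases) and 0.23 (RNA helicases and Mavs), with Tlr5 (1.23), Myd88 (0.14), Ticam2 (0.13), Irak3 (0.031), Irak4 (0.35) and Traf6 (0.22) turned upward; the random block gave Tlr5 as 0.080. The median of RNA helicases and Mavs was 0.071 with quantile normalization and 0.046 with normexp, and 0.029 to 0.19 with 1 array left out. Casp4 was -0.034 with quantile normalization, -0.082 with normexp and -0.034 with array weights, which also gave Nlrp3 as -0.053 and the NLR and inflammasome median as -0.0034. The mean of all probes gave Irak2 as -0.25, by taking in a probe above background on 1 of 3 KO arrays, and Irak4 as 0.11. In the deposited table, which holds 6 members, the medians were 0.62 over members, -0.96 (endosomal receptors), 1.54 (accessory proteins), 0.47 (adaptors and kinases) and 0.44 (NLR genes).

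With 1 array left out, signs turned in Unc93b1 (-0.19 to 0.051), Ticam2 (-0.27 to 0.0054), Tirap (-0.089 to 0.27), Irak3 (-0.33 to 0.019), Traf6 (-0.44 to 0.020), Nlrc4 (-0.27 to 0.0027), Casp4 (-0.074 to 0.14), Ifih1 (-0.17 to 0.043) and Dhx58 (-0.033 to 0.26), and, for female minus male, in Tlr13 (-0.016 to 0.14) and Irak1 (-0.052 to 0.46). None of the members whose sign turned had passed. Over all members and alternatives, 651 values kept direction and side of the threshold, 15 newly passed, 6 no longer did and 37 turned. In 3 settings chosen after seeing the data (quantile normalization, scaling to the array median and normexp), the limma test of the interaction of sex and genotype again gave 0 members; at an unadjusted p under 0.05 there were 3 in the setting of the report. No paired analysis was possible because the 2 genotypes share no replicate numbers. The dimmest probes well above background read -5.94 to -5.49 across the 6 arrays. Tlr8 was left untested because it was well above background on 1 array, fewer than the 3 that the filter asks for.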
